A study of Saccharomyces cerevisiae with 6 samples.

Results

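The small-subunit cytosolic ribosomal proteins are the proteins that, with 1 ribosomal RNA, build the 40S subunit of the yeast ribosome. Their genes were taken by name: every row of the table whose standard yeast name is RPS followed by digits, with an optional A or B. The rule found 56 genes among 7554 transcripts, and the RefSeq annotation calls the product of each of the 56 a 40S ribosomal protein. They formed 24 pairs of A and B copies (48 genes) and 8 genes with no second copy. RNA was sequenced from 3 libraries of yMH007, the strain with dChr (an artificial chromosome that carries data), and 3 of yMH104, the control strain with an empty plasmid. Cells of both strains grew at 30 °C in synthetic medium without uracil: overnight cultures of 4 ml were used to start 50 ml at a density (OD) of 0.2, which was collected at 1.0 to 1.2. The labels name no further alleles or clones for either strain. They do not tell whether separate cultures gave the 3 libraries of each, and p-values then measure only how far these libraries differ.

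The 40S subunit binds messenger RNA and reads its codons, and it joins the 60S subunit once a start codon has been found. In budding yeast the genes of both subunits are among the most transcribed of the genome, and their promoters are typically bound by Rap1 with Fhl1, Ifh1 and Sfp1, or in a few genes by Abf1. Most small-subunit proteins are encoded by a pair of copies left from an ancient genome duplication. Many of the genes carry an intron, which is rare in this yeast.

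Values are TPM, a level per length scaled to library total. The table holds no counts, so depth is unknown and no counting interval is given. Protein-coding genes took 44.5% to 49.5% of the TPM of the dChr libraries and 41.7% to 46.4% of the control libraries. Assembled transcripts with no gene name or position took 24.6% to 34.9% in dChr and 20.3% to 34.6% in control. Whether these hold reads of ribosomal protein genes was not tested.

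The levels of the 56 genes spanned a wide range. Averaged over the 6 libraries, 8 genes were above 1000 TPM, 33 between 100 and 1000 TPM, 11 between 10 and 100 TPM and 4 below 10 TPM. RPS12, which encodes eS12 of the beak of the 40S head, was the highest, with 6348, 6876 and 6448 TPM in the dChr libraries against 4792, 5130 and 5539 TPM in the control libraries. RPS13, the gene of uS15, was next at 3031, 3257 and 3103 TPM in dChr against 2654, 3213 and 3062 TPM in control. RPS17A, 1 of the copies for eS17, followed at 1465, 1536 and 1580 TPM in dChr against 1410, 1547 and 1626 TPM in control. The libraries overlapped for RPS13 and RPS17A and not for RPS12. RPS12 and RPS13 together held 28.4% of the summed RPS TPM. Among the 52 genes of at least 10 TPM, the median coefficient of variation between libraries of a strain was 6.03% in dChr and 10.9% in control. Control library 1 was the lowest of the 6 libraries for 30 of the 56 genes.

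At the low end, 3 copies had abundant partners. RPS9A, for uS4, a protein of decoding fidelity, was listed at 0 in the 6 libraries, while its partner RPS9B was at 371 ± 18.8 TPM in dChr and 303 ± 32.0 TPM in control (SD, n = 3 each). RPS25B was at 0.0513, 0.174 and 0.0501 TPM in dChr and 0.478, 0.0583 and 0.0340 TPM in control, while RPS25A was at 722 ± 63.7 TPM in dChr and 671 ± 98.8 TPM in control. RPS29A, for the zinc-binding protein uS14, was at 0.648, 2.71 and 4.16 TPM in dChr and 3.68, 9.22 and 0.0903 TPM in control, and its libraries overlapped. RPS27A and RPS27B, for eS27, were both low, as described with the copies. An exact 0 can be a failed estimate. RPS9A and RPS25B were under the mean of 1 TPM required for the test, so 54 of the 56 genes were tested.

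**Figure D1:**
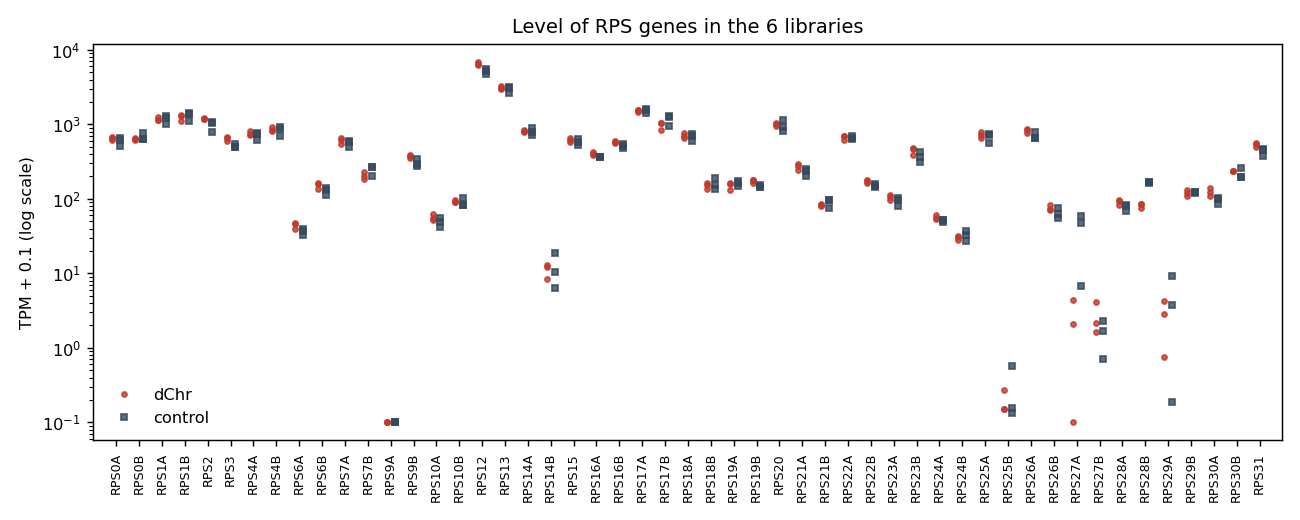
TPM + 0.1 on a log axis for the RPS genes reported by name, in number order; red circles are the 3 dChr libraries and dark squares the 3 control libraries. RPS12 and RPS13 stand highest, RPS9A lies at the bottom with 0 TPM in the 6 libraries, and the RPS27A and RPS29A points are widely scattered.

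Between the strains a single member changed. RPS28B, a copy of the gene of eS28, a small protein at the mRNA exit channel, was at 74.4, 84.5 and 85.1 TPM in the dChr libraries against 166, 169.8 and 170.1 TPM in the control libraries. The libraries did not overlap, and the 3 control values lay within a few TPM of each other. The log2 fold change on the scale of TPM + 1 was -1.04 ± 0.08 (SE), with limma adjusted p = 0.000882. Of all 5938 tested transcripts 4.19% were called higher in dChr and 9.16% lower, against 0 and 1 of the 54 tested RPS genes. By limma 10 of the 54 had an unadjusted p under 0.05, 8 of them higher in dChr and 2 lower, where 27.8% of all transcripts did.

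RPS28A and RPS28B are shown because a fall in 1 copy alone rests on reads being told apart between them. Their coding sequences have 204 bases each, no intron, and 24 differing bases (88.2% identity), and no stretch of 50 bases is the same in both. They are shown 5′ to 3′ from the R64 reference in RefSeq, with the differing bases in capitals. RPS28A lies at chrXV:648804-649007 on the minus strand, and RPS28B at chrXII:673131-673334 on the plus strand.
RPS28A: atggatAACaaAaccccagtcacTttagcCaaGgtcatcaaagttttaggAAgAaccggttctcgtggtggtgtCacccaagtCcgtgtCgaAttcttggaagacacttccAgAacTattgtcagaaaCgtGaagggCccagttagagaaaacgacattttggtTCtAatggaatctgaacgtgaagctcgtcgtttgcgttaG
RPS28B: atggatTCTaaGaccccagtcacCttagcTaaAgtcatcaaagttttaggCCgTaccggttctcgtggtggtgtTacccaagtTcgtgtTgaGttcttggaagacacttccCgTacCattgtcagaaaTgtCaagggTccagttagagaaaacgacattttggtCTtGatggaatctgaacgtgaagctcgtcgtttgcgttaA

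The partner RPS28A was at 96.7, 84.0 and 94.4 TPM in dChr against 82.7, 81.0 and 68.0 TPM in control. Each dChr library was above each control library, and the difference did not pass the test (log2 fold change 0.25 ± 0.11 SE, limma adjusted p = 0.200). In the dChr libraries the A copy made up 56.5%, 49.8% and 52.6% of the TPM of both copies, against 33.3%, 32.3% and 28.6% in the control libraries. The shares of the strains were far apart: B was the larger copy in each control library, and in dChr the copies were about level. The log2 ratio of A to B differed by 1.29 ± 0.13 between the strains (SE, limma adjusted p = 0.00516 over 57 pairs). The summed TPM of both copies was 173 ± 5.75 in dChr and 246 ± 6.73 in control (SD, n = 3 each), a log2 fold change of -0.50 ± 0.07 (limma adjusted p = 0.00728). With assembled transcripts left out the log2 fold change of the sum was -0.47 and missed the threshold (adjusted p = 0.108).

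RPS28B is known for a feedback loop in which Rps28 protein binds the 3′ untranslated region of RPS28B mRNA and Edc3 brings in the decapping enzyme. EDC3 itself was at 3.94, 3.44 and 2.79 TPM in dChr against 2.61, 4.21 and 3.73 TPM in control (limma adjusted p = 0.934), with overlapping libraries. DCP2, the catalytic decapping subunit, was at 14.7 ± 1.08 TPM in dChr and 15.6 ± 1.56 TPM in control (SD, n = 3 each; limma adjusted p = 0.715). Of 8 tested genes of mRNA decay and processing limma called 0, where 13.4% of all transcripts were called. Of the 8, 1 had an unadjusted p under 0.05, where 27.8% of all transcripts did. This gene was DHH1, a helicase that promotes decapping, at 329 ± 22.8 TPM in dChr and 266 ± 24.4 TPM in control (SD, n = 3 each, limma adjusted p = 0.103). The part of these genes in the level of RPS28B was not tested.

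**Figure D2:**
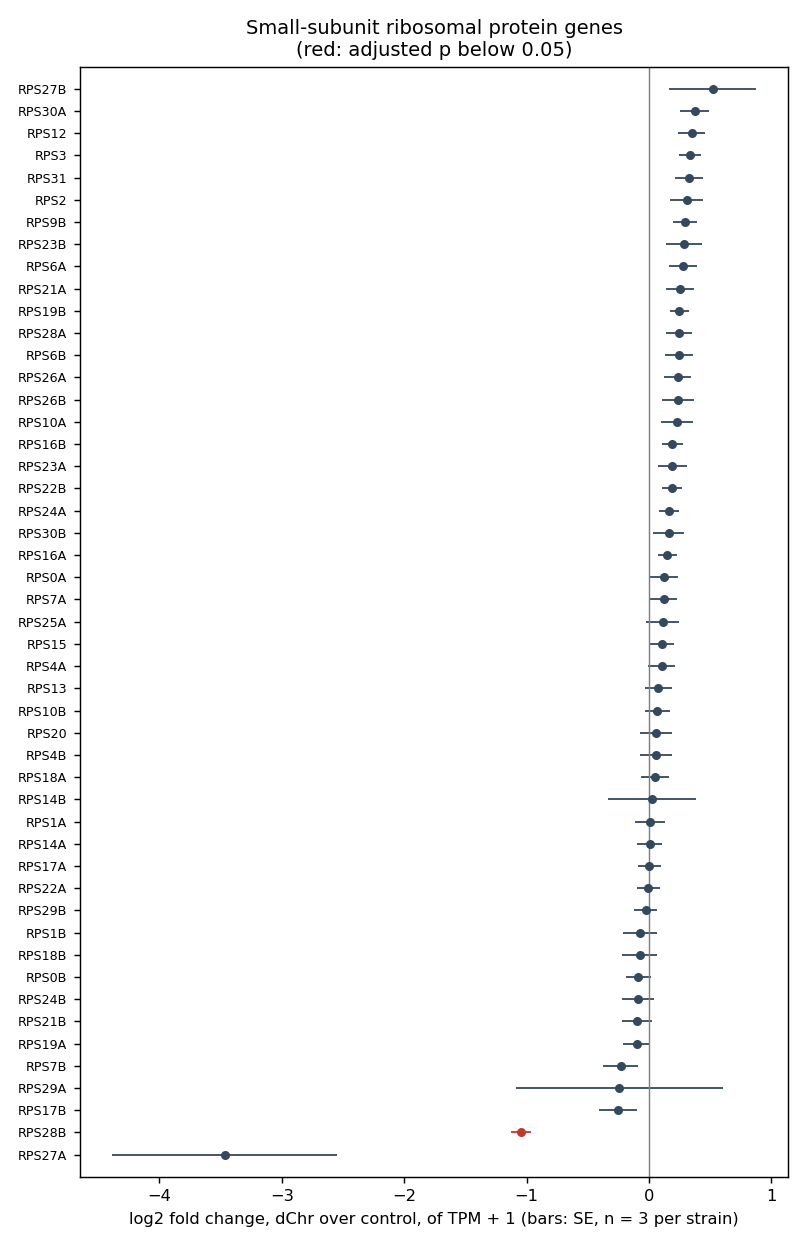
Log2 fold change of TPM + 1, dChr over control, for the tested RPS genes reported by name, in order of size; points are estimates, bars the limma SE (n = 3 libraries per strain), and red marks the gene with adjusted p below 0.05. RPS28B at -1.04 has a narrow bar, RPS27A at -3.47 a wide one, and every other gene drawn except RPS27B lies within 0.4 of 0.

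The other tested members differed little and were more often positive than negative. The log2 fold change was under 0.4 in either direction for 51 of the 54 genes. It was positive for 40 genes and negative for 14, with a median of 0.12, while 44.4% of all tested transcripts were positive and the median of all was -0.04. Under the alternatives run, the RPS median stayed positive (0.03 to 0.18, the lowest without control library 1). So did its distance from the median of all transcripts (0.06 to 0.22). The number of positive genes moved more, from 31 of 54 with protein-coding transcripts only to 43 of 54 without control library 2. It was 33 without control library 1. The dChr libraries lay above the control libraries without overlap for 13 of the 54 (24.1%), against 12.9% of all transcripts. They lay below for 3 (5.56%), against 21.2% of all. Members share each library's scaling, so these counts are a description and not independent evidence.

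The largest positive values among members above 100 TPM belonged to RPS30A, RPS12, RPS3 and RPS31, and none passed the test. RPS3, for uS3 at the mRNA entry channel, was at 599, 676 and 654 TPM in dChr against 493, 492 and 543 TPM in control (log2 fold change 0.34 ± 0.09 SE, limma adjusted p = 0.0589). RPS30A was at 124, 109.9 and 138 TPM in dChr against 98.5, 102 and 86.0 TPM in control (limma adjusted p = 0.0906). RPS31, whose product is made as a fusion of ubiquitin and eS31, was at 549, 569 and 491 TPM in dChr against 373, 462 and 451 TPM in control (limma adjusted p = 0.122). In these 3 genes, and in RPS12 (log2 fold change 0.35 ± 0.11 SE, limma adjusted p = 0.0911), each dChr library was above each control library. The calls at this size turned with the setting: RPS3 was called under 5 alternatives, the lowest adjusted p being 0.0348 with a robust variance model.

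Toward the lower side, the 5 most negative values belonged to RPS27A, RPS28B, RPS17B, RPS29A and RPS7B. For RPS29A (log2 fold change -0.24 ± 0.84 SE) the sign turned with the setting: it was 0.14 with a pseudocount of 0.1, 0.03 with array weights, 0.23 without dChr library 1 and 0.48 without control library 2. RPS17B was at 846, 1052 and 1029 TPM in dChr against 957, 1245 and 1302 TPM in control (log2 fold change -0.25 ± 0.15 SE, limma adjusted p = 0.342). RPS7B, a copy for eS7, was at 187, 231 and 205 TPM in dChr against 201, 265 and 271 TPM in control (limma adjusted p = 0.359). In both genes the libraries of the strains overlapped.

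RPS27A had the largest difference of all members, on libraries that did not agree within the control strain. It was at 2.01, 0 and 4.33 TPM in the dChr libraries against 46.8, 58.2 and 6.67 TPM in the control libraries. The groups did not overlap, but control library 3 was close to the dChr libraries, and dChr library 2 was listed at 0. The log2 fold change of -3.47 ± 0.92 (SE) did not pass (limma adjusted p = 0.0571). It passed without control library 3 (adjusted p = 0.0186), without assembled transcripts (0.00318), with protein-coding transcripts only (0.0221) and with a mean of at least 10 TPM (0.0443). RPS27B was at 4.03, 2.06 and 1.52 TPM in dChr against 0.607, 1.57 and 2.19 TPM in control, with overlapping libraries. Both copies together gave 6.04, 2.06 and 5.85 TPM in dChr against 47.4, 59.8 and 8.86 TPM in control (limma adjusted p = 0.0696). This sum was called without control library 3 (adjusted p = 0.00794).

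**Figure D3:**
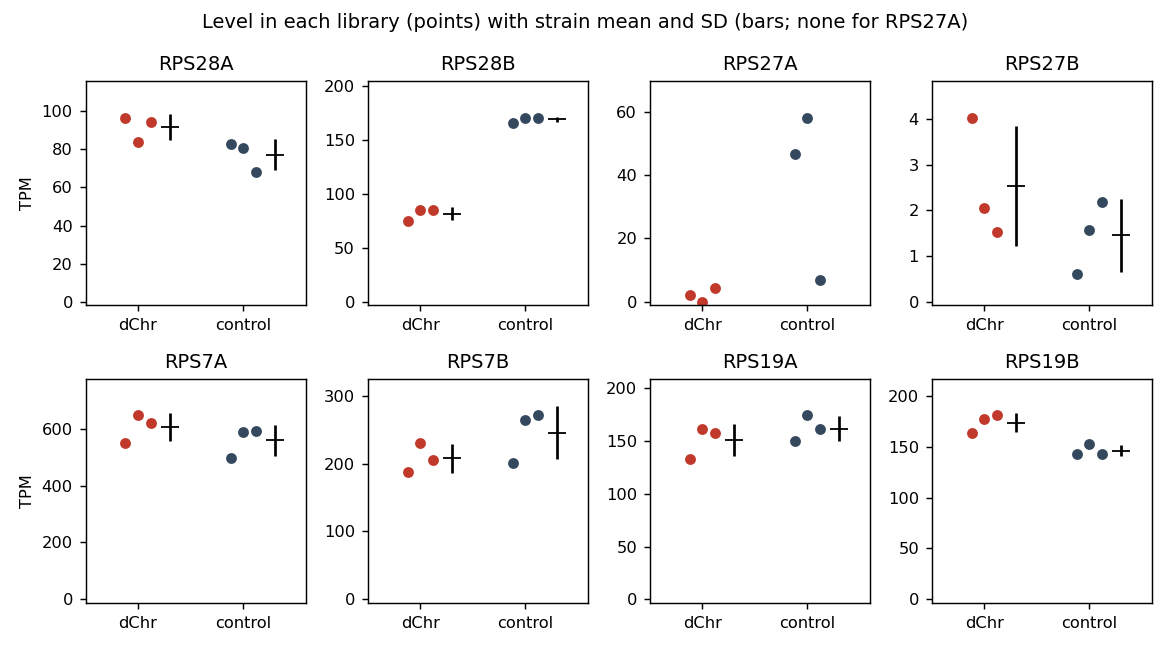
TPM in each library of the copies of RPS28, RPS27, RPS7 and RPS19; points are libraries (red dChr, dark control), and the bars give the strain mean and SD (n = 3; none for RPS27A, where a library is listed at 0). RPS28B is near 81 TPM in dChr and near 169 TPM in control, whereas control library 3 of RPS27A lies close to the dChr points.

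The A and B copies were then compared within each library, a ratio that does not depend on how libraries are scaled apart from the pseudocount. A was above B in the 6 libraries for 10 pairs, B was above A in the 6 libraries for 9, and the order was mixed for 5. RPS14, RPS29 and RPS26 were the most one-sided pairs with both copies tested. RPS14A, for uS11 of the platform, held 98.7% ± 0.299 of its pair in dChr and 98.5% ± 0.916 in control (SD, n = 3 each). RPS14B is known to be held down by splicing feedback from Rps14 protein, and its part in these shares was not tested. RPS26A held 91.6% ± 0.651 in dChr and 91.6% ± 0.562 in control (SD, n = 3 each). RPS0, RPS1 and RPS4 were among the nearly balanced pairs, with the A share between 44.9% and 51.8% in every library. In RPS16 the A share was 40.1% to 43.6%.

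Of the 22 RPS pairs with both copies tested, 3 changed their balance (13.6%), where 10.5% of all 57 pairs did. Large-subunit genes made up 34 of those pairs, and 3 of them were called. In RPS28 the balance moved toward A, as given above. In RPS7 it also moved toward A: the A share was 74.6%, 73.7% and 75.2% in dChr against 71.2%, 69.0% and 68.6% in control. In RPS19, whose protein eS19 sits in the 40S head, it moved toward B: the A share was 44.9%, 47.7% and 46.6% in dChr against 51.1%, 53.3% and 53.0% in control. In the 3 pairs the shares of the strains did not overlap. The log2 ratio of A to B changed by 0.35 ± 0.07 in RPS7 and by -0.35 ± 0.07 in RPS19 (SE, limma adjusted p = 0.0325 for each).

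The RPS7 and RPS19 calls were less stable than that of RPS28. They were lost without any single library except control library 1 (adjusted p from 0.0638 to 0.129), and with a replicate block (0.110 for RPS7 and 0.0594 for RPS19). RPS28 passed under the 12 alternatives run on the balance, with a highest adjusted p of 0.0322. RPS19A was at 133, 162 and 158 TPM in dChr against 150, 174 and 162 TPM in control, and RPS19B at 164, 178 and 181 TPM in dChr against 143, 152 and 143.5 TPM in control. The B copy was thus higher in each dChr library, while the A copies overlapped. RPS7A was at 551, 647 and 621 TPM in dChr against 497, 588 and 591 TPM in control.

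Among the other pairs, those with the largest balance changes did not pass. RPS21, for eS21, had an A share of 74.8%, 78.6% and 76.5% in dChr against 72.9%, 71.1% and 72.1% in control (limma adjusted p = 0.0696). RPS27, with the largest balance change of the 22 pairs (-3.99 ± 1.24 SE on the log2 scale), had an A share of 33.3%, 0% and 73.9% in dChr against 98.7%, 97.4% and 75.3% in control (adjusted p = 0.106). It was called without control library 3 (adjusted p = 0.0321). In total, 6 of the 22 pairs (27.3%) had shares that did not overlap between the strains, against 35.1% of the 57 pairs. For each of these 6 the two-sided exact permutation p was 0.1, the smallest that 3 against 3 allows.

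**Figure D4:**
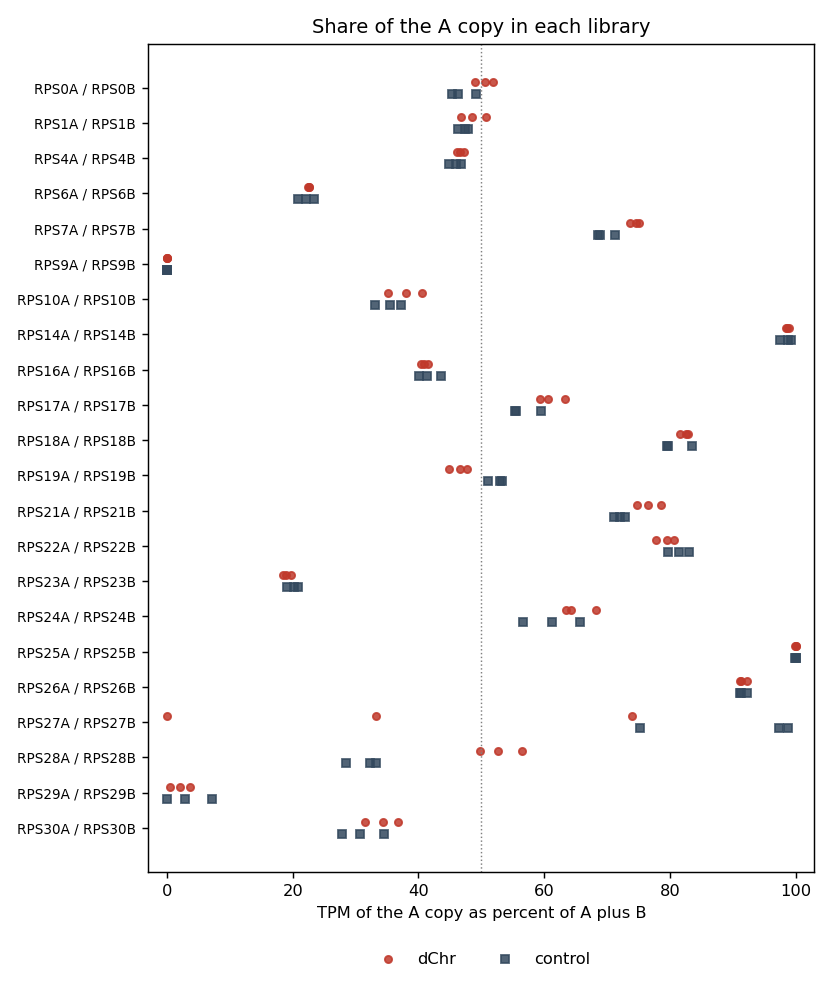
TPM of the A copy as percent of A plus B for the RPS pairs reported by name in each library; red circles are dChr and dark squares control, and the dotted line marks 50%. RPS28 shows the clear separation, at 49.8% to 56.5% in dChr and 28.6% to 33.3% in control; for most other pairs the points of the strains overlap.

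How well reads can be assigned to a copy differs between pairs. Identity of the coding sequences ranged from 84.3% in RPS27 to 99.2% in RPS6. In 9 pairs no stretch of 50 bases occurs in both copies, RPS28 and RPS27 among them. In RPS4, RPS6 and RPS24 over 30% of such stretches do, with 72.1% in RPS6, so the split between these copies is uncertain. RPS7 shares 0.763% of its stretches and RPS19 12.2%. Sums of both copies do not depend on the split: of 24 pair sums limma called 0 higher and 1 lower (RPS28), and 3 had an unadjusted p under 0.05. Of all rows of that fit 4.21% were called higher and 9.2% lower. The sums had a median log2 fold change of 0.08, and 19 of 24 were positive. RPS22B holds the small nucleolar RNA gene SNR44 in its intron, the only annotated gene that overlaps a member.

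Summed as TPM, the RPS transcripts overlapped between the strains. Their TPM summed to 31350, 33898 and 33026 in the dChr libraries against 27029, 32042 and 31118 in the control libraries. Control library 1 was low, and the other libraries of the strains overlapped. For the difference of 2695 TPM the two-sided exact permutation p was 0.2, and 0.1 is the smallest possible. As a share of protein-coding TPM the sums were 7.12%, 7.06% and 7.28% in dChr against 6.53%, 7.05% and 7.16% in control (exact permutation p = 0.4). With median-ratio scaling they were 32837, 32700 and 34911 in dChr against 27770, 28418 and 31973 in control. Under that scaling the strains did not overlap (exact permutation p = 0.1). The median over the 56 genes was 299, 318 and 322 TPM in dChr against 263, 291 and 277 TPM in control, with no overlap (exact permutation p = 0.1).

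**Figure D5:**
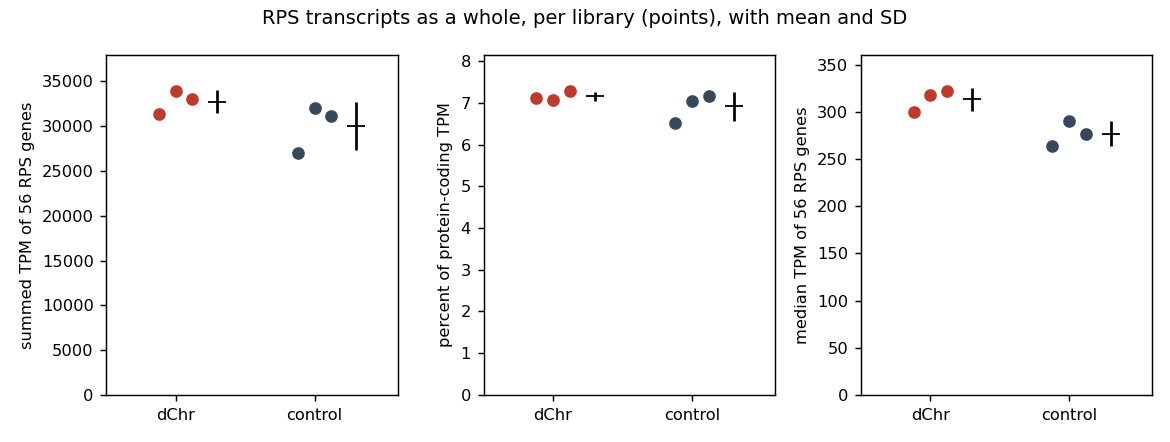
Summed TPM of the 56 RPS genes, their percent of protein-coding TPM, and their median TPM in each library (points; red dChr, dark control), with mean and SD (n = 3). The sums overlap between the strains, while the medians lie at 299 to 322 TPM in dChr and 263 to 291 TPM in control.

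The ratio to the large subunit overlapped between the strains. Summed RPS over summed large-subunit TPM was 0.855, 0.851 and 0.849 in dChr against 0.844, 0.870 and 0.866 in control (exact permutation p = 0.4). Of 78 tested large-subunit genes 3 were called higher and 1 lower, where 4.19% of all transcripts were called higher and 9.16% lower. The median log2 fold change of the large-subunit genes was 0.16. It was 0.08 both without control library 1 and with protein-coding transcripts only. The lower one was RPL22B, at 12.9 ± 1.15 TPM in dChr and 24.3 ± 3.72 TPM in control (SD, n = 3 each; limma adjusted p = 0.0101). Of those called higher, RPP2A, a protein of the ribosomal stalk, was at 247 ± 6.21 TPM in dChr and 181 ± 18.8 TPM in control (limma adjusted p = 0.0299). RPP1A, also of the stalk, was at 285 ± 18.0 TPM in dChr and 222 ± 12.3 TPM in control (limma adjusted p = 0.0421). ASC1, a 40S protein outside the naming rule, was at 4061, 4508 and 4204 TPM in dChr against 3384, 3861 and 4149 TPM in control (limma adjusted p = 0.409).

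Genes that act on the small subunit or its genes were also counted. Of 6 tested transcription factors of ribosomal protein genes (RAP1, FHL1, CRF1, SFP1, HMO1 and ABF1) limma called 0, and 0 reached p under 0.05 before adjustment. Of all transcripts 13.4% were called and 27.8% had an unadjusted p under 0.05. IFH1 was not used here. RAP1 was at 10.3 ± 0.421 TPM in dChr and 10.9 ± 1.58 TPM in control, and SFP1 at 12.4 ± 0.624 TPM in dChr and 14.1 ± 1.02 TPM in control (SD, n = 3 each). Of 13 tested factors of late 40S assembly 3 fell and 1 rose, where 9.16% of all transcripts were called lower and 4.19% higher. Their median log2 fold change was -0.36, and it was -0.22 without control library 2. ENP1 fell by 1.21 on the log2 scale, at 6.07 ± 0.669 TPM in dChr and 15.6 ± 3.49 TPM in control, and PNO1 fell by 0.97 (limma adjusted p = 0.00728 and 0.0105). The factor that rose was YAR1, the chaperone that escorts newly made Rps3, at 15.9, 13.2 and 18.0 TPM in dChr against 5.38, 9.14 and 6.81 TPM in control (limma adjusted p = 0.0170). Of 13 tested initiation factors that bind the 40S subunit 0 rose and 1 fell: SUI1, which encodes eIF1, was at 11.8 ± 0.481 TPM in dChr and 19.0 ± 2.29 TPM in control (limma adjusted p = 0.0144). Without dChr library 1, dChr library 3 or control library 3, the calls of YAR1, RPP2A and RPP1A were lost, since 0 genes of these lists were then called higher.

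Gene structure, which the naming rule did not use, was set beside the changes without a test. The 35 tested genes with an intron had a median log2 fold change of 0.12, and the 19 without one a median of 0.13. Their levels differed more, with medians of 226 TPM with an intron and 576 TPM without. A copies had a median of 0.12 (23 genes), B copies 0.07 (23 genes) and the 8 genes with no second copy 0.29. Each of these 8 was positive in the reported fit. RPS13, 1 of them, was negative with quantile normalization (-0.05), with protein-coding transcripts only (-0.00014) and without control library 1 (-0.0036). RPS20, also among them, had a log2 fold change of 0.06. It was at 953, 1033 and 1000 TPM in dChr against 826, 1134 and 928 TPM in control. Its positive sign rested on the low control library 1. These single-copy genes include RPS3, RPS12 and RPS31, and RPS2, for uS5 of decoding fidelity, at 1169, 1183 and 1199 TPM in dChr against 783, 1075 and 1036 TPM in control (limma adjusted p = 0.201).

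Upstream sequence was read for the core of the Rap1 site, CCNTACAT, on both strands in the 500 bases before the start codon. It occurred upstream of 25 of the 56 RPS genes (44.6%), of 40.7% of large-subunit genes and of 5.6% of 6000 protein-coding genes. The Abf1 pattern, TC and ACG with any 7 bases between them, occurred on either strand upstream of 42.9% of RPS genes and 46.1% of all genes. Both were found upstream of 9 RPS genes, and they overlapped in 1. Genes with a Rap1 match had a median log2 fold change of 0.15 and those without 0.12. In 7 pairs both copies had a match, in 8 pairs 1 copy did and in 9 pairs neither, RPS28 among the last. In RPS0, RPS9, RPS10, RPS22 and RPS23 only 1 copy has a match, and no balance change was called in these pairs (RPS9 was not tested). The copies also differ in RPS7, RPS19 and RPS27: RPS7B, RPS19A and RPS27B have a match and their partners none. Whether a match goes with the balance of a pair was not tested. The windows of RPS7B, RPS19A and RPS27B and that of RPS12 are shown with the match in capitals. Each has 30 bases in the direction of the gene, to set the sites beside the copies whose balance was compared. They lie at chrXIV:444595-444624, chrXV:93076-93105 and chrVIII:149086-149115 for the 3 copies, and at chrXV:1028897-1028926 for RPS12, all on the minus strand of R64.
RPS7B: cctctttaaatCCGTACATtattgttttgc
RPS19A: gttcgttcaacCCGTACATttatataaaac
RPS27B: ttgtatttagcCCATACATtttcacccatg
RPS12: ccattgtgcatCCGTACATttgatttgttt
Between the match and the start codon lie 290, 236, 427 and 282 bases in this order. A match is a description of letters and shows no binding.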

How the data were processed

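The submitters' processing notes name cutadapt 2.6, StringTie 2.0, HISAT2 2.0.5, R 3.6.0 and DESeq2, the last with no version, and the sacCer3 build. What each tool did, whether strand was used and how low values were treated is not stated there. The authors deposited TPM values in 1 table of 7554 transcripts, 643 of them assembled without a gene name. TPM holds no depth. Gene names, structure and sequence came from RefSeq assembly R64, which matched 5928 transcripts.

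The scale was log2(TPM + 1), which understates the change of low genes. limma 3.58.1 (R 4.3.3, eBayes with trend) was fitted to the 5938 transcripts that averaged at least 1 TPM, two-sided, for dChr over control. P-values were adjusted over all of them by Benjamini-Hochberg, with a threshold of 0.05. The log2 ratio of A to B was fitted with limma (without trend) over the 57 pairs in the table whose names differ by a final A or B and whose copies both passed the filter. In a further fit each RPS pair was replaced by its sum. Values per library were compared by exact permutation. Coding sequences were aligned with Biopython 1.88, and stretches of 50 bases found in both copies were counted. The fit of all transcripts was tested on simulated data, with the outcome not given here. The fits of A to B ratios and of pair sums were not tested in this way.

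Values in every library are given for called RPS genes, the 5 largest changes in each direction, the 3 highest and 3 lowest levels, genes with a library 4-fold or more from the median of its strain, and pairs called or among the 3 largest balance changes in each direction. Outside RPS, ASC1 and up to 2 called genes per list and direction are named. RPS2, RPS9B, RPS14A, RPS20, RPS25A, RPS26A, EDC3, DCP2, DHH1, RAP1 and SFP1 were added after their values were seen. The members and lists were chosen with earlier results of these data known. Other pseudocounts, filters, scalings and variance models, a block for replicate number and the omission of each library in turn were tried as alternatives. With strand use not stated, reads of a gene and of an antisense partner cannot be told apart. A few genes that this rule or the figures would include are not reported here by name; they remain in the counts, medians and sums.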

Additional observations from a re-analysis of the deposited data

How the results depend on the processing

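RPS28B was called lower under each of the 18 alternatives (log2 fold change -1.13 to -0.98, highest adjusted p = 0.00666), and no called result changed direction. The number of RPS genes called higher was 0 in the reported fit, 1 with a mean of at least 10 TPM, 5 with median-ratio scaling, 4 with quantile normalization, and 2 with protein-coding transcripts only or a robust variance model. It was 0 whichever library was left out. The number called lower was 1, and was 2 with a mean of at least 10 TPM and without assembled transcripts, and 3 with protein-coding transcripts only. Leaving out a library gave 1 to 2, the 2 coming without control library 3, when RPS27A joined RPS28B. Pair sums called lower were 2 with protein-coding transcripts only and 1 to 2 on leaving out a library; without assembled transcripts the 1 called was RPS27, not RPS28. Pairs called for balance were 1 to 3 on leaving out a library, RPS28 in each. Over the other lists, members called higher were 4, but 10 with median-ratio scaling, 1 without assembled transcripts and 0 to 4 on leaving out a library; those called lower were 5, but 10 with protein-coding transcripts only, and 4 to 6 on leaving out a library. The cause was not tested. With median-ratio scaling 507 of all transcripts were called higher and 638 lower, with quantile normalization 555 and 561, and with protein-coding transcripts only 254 and 934, beside 249 and 544. The log2 ratio of summed RPS TPM was 0.12 and stayed between 0.05 and 0.19. For the geometric mean over RPS genes it was 0.02.

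With a replicate block in the model RPS28B was the RPS gene called, RPS28 was 1 pair called for balance in place of 3, and the list counts were 3 higher and 7 lower. The summed RPS TPM, paired by number, gave p = 0.25 in an exact sign-flip test, the smallest that 3 pairs allow. The deviations of same-numbered libraries correlated at 0.09, -0.08 and 0.12, so the numbers do not show a pairing. TPM without depth limits what can be said of RPS9A, RPS25B, RPS27A, RPS27B and RPS29A.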
